A study of Homo sapiens with 3 samples.

Results

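A list of 48 genes of DNA damage signaling and DNA repair was followed through xenograft tumors treated with inhibitors of CDK2 or EZH2. The genes were taken by symbol, and the list was chosen with earlier results of these data known. All 48 were found among the 29689 genes measured, with no value at the floor of the table in any tumor. The material was SUM-149, a triple-negative breast cancer (TNBC) cell line that carries a mutated BRCA1. The cells were grown with Matrigel in mammary fat pads of female Nu/Nu mice, hosts that lack mature T cells but keep other immune and stromal cells. RNAseq gave 3 libraries, 1 from each group: a vehicle tumor, a tumor treated with the CDK2 inhibitor dinaciclib (CDK2i), and a tumor treated with an EZH2 inhibitor (EZH2i), which the sample labels name EPZ6438. Treatment lasted 10 days. The study's own account of SUM-149 xenografts names another EZH2 inhibitor, GSK343, so the compound behind the EZH2i library is given here as labelled. No group had a replicate, so no p-value or SD was computed, and every difference below compares 1 tumor with 1 tumor.

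The tumors were checked against markers of their labelled origin. All 9 epithelial markers were above log2 FPKM 1 in each tumor, and their summed levels were 5297 FPKM (vehicle), 12428 FPKM (CDK2i) and 5010 FPKM (EZH2i). FPKM counts the fragments of a gene relative to its transcript length and to the size of the library. Of the receptors whose absence defines TNBC, PGR reached at most 0.00415 FPKM and ESR1 at most 1.10, while ERBB2 lay between 21.9 and 30.4. Human markers of stromal and immune cell types were also read. The host cells are murine, and since the values were made against the human genome these markers do not measure the host content of the tumors. Those of fibroblasts summed to 25, 39.1 and 31.1 FPKM in vehicle, CDK2i and EZH2i, led by COL1A1, and those of endothelium to between 11.9 and 12.2, nearly all from ENG. Those of macrophages summed to at most 3.48, mostly from ITGAM at 3.07, 2.97 and 1.94, with CD68 at or near 0. Adipocyte markers summed to 33.2, 19.3 and 3.54 FPKM, nearly all from FABP4, whose level in vehicle, 32.6, was like that of the epithelial marker CDH1, while ADIPOQ stayed at or near 0. The steps between low values placed the library depth at about 16.8 M fragments (M, 1000000 fragments) in vehicle, 19.1 M in CDK2i and 17.5 M in EZH2i.

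DNA double-strand breaks are repaired accurately by homologous recombination, in which broken ends are resected, coated by replication protein A, and prepared for strand exchange by BRCA2 with the help of BRCA1 and PALB2. The Fanconi anemia proteins clear DNA crosslinks, the kinases ATM and ATR signal damage to the checkpoints, and the Ku proteins with DNA-PKcs rejoin ends without a template. Cells with a defective BRCA1 depend on the remaining routes, which is why BRCA1-mutant tumors are studied with PARP inhibitors. Dinaciclib also inhibits other cyclin-dependent kinases, among them CDK12, a kinase of RNA polymerase II that is known for sustaining the transcription of long genes, several DNA repair genes among them. For this reason the differences were set against gene length as well as against the roles of the genes.

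In the vehicle tumor the 48 genes spanned log2 FPKM −0.24 to 6.51, with a median of 2.35. Because FPKM is a level per length of transcript, levels can be compared between genes, but only roughly, as the lengths used are not known. The most abundant genes were XRCC6 (Ku70) at log2 FPKM 6.51, PARP1 at 5.50 and XRCC5 (Ku80) at 5.41, while XRCC4 and LIG4, which also act in end joining, lay below the median. The least abundant were BRCA1, BRCA2 and partners of theirs, with FANCM of the Fanconi anemia pathway. BRIP1, the helicase bound to BRCA1, was at −0.24, BRCA2 at 0.36, FANCM at 0.40, BARD1 at 0.43 and BRCA1 at 0.65. The median level was 2.05 under CDK2i and 3.18 under EZH2i, and XRCC6 stayed at the top in each, at 6.72 and 6.84. As these were bulk tumors, fewer cells that transcribe a gene and less RNA per cell cannot be told apart.

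**Figure D1:**
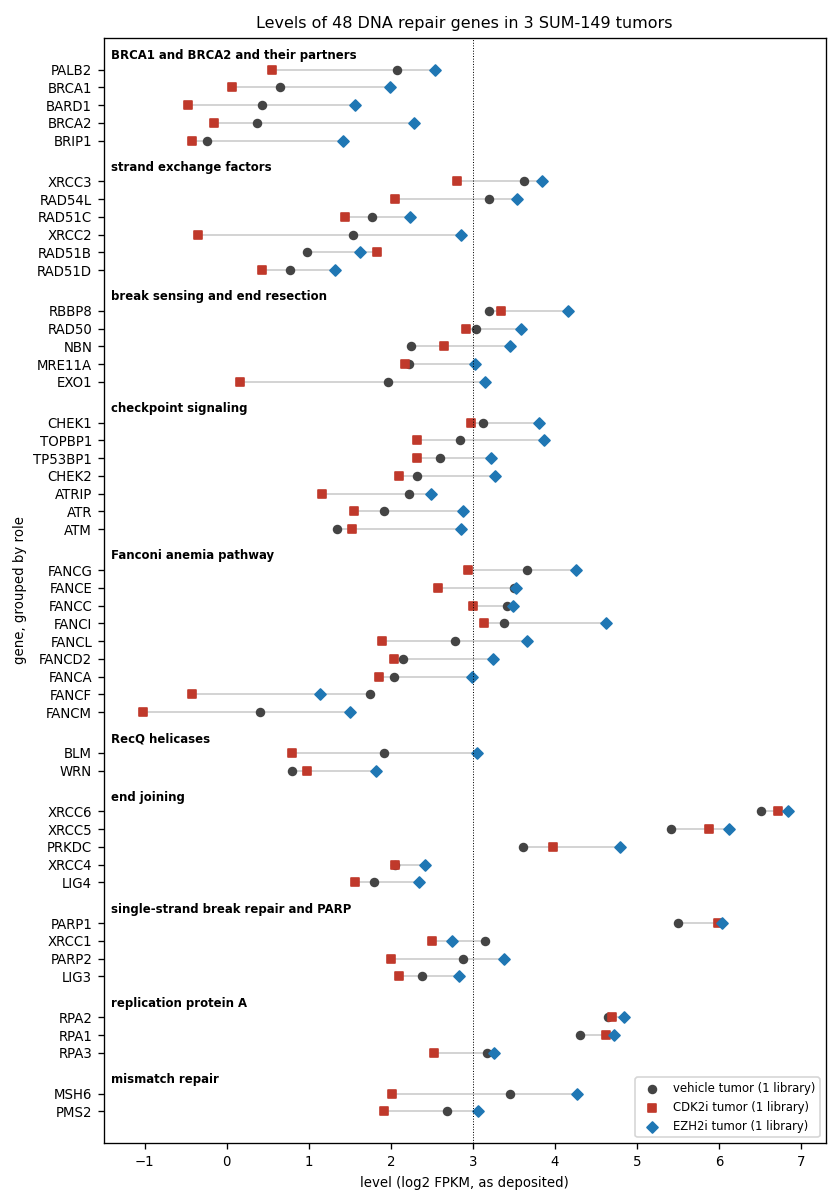
Level of each of the 48 DNA repair genes (rows, grouped by role and ordered by the vehicle level) in log2 FPKM in the vehicle, CDK2i and EZH2i tumors, 1 library each, with a grey line joining the lowest and highest. The dotted line marks log2 FPKM 3, the expression minimum; XRCC6, PARP1 and XRCC5 lie far to the right of the BRCA1 and BRCA2 group.

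The log2 FPKM of the vehicle tumor was subtracted from that of each treated tumor. The 95% intervals given with the differences come from fragment numbers estimated from the FPKM, the depth and the canonical transcript length. They cover counting error only, not the variation between tumors, and are approximate because the lengths used by the authors are not given in the sources used here. Both comparisons share the vehicle tumor, so a high or low vehicle value moves a gene in both. In the CDK2i tumor 36 of the 48 genes (75%) were lower than in vehicle, against 58% of the 11109 tested genes, those that averaged more than log2 FPKM 1 and never lay at the floor. The median difference was −0.34 over the 48 genes and −0.11 over the tested genes. The counting interval lay below 0 for 27 genes, above 0 for 8 and spanned 0 for 13. In the EZH2i tumor 46 of the 48 (95.8%) were higher than in vehicle, against 61.5% of the tested genes, with a median difference of 0.67 against 0.19. There the interval lay above 0 for 43 genes, below 0 for 2 and spanned 0 for 3. Other scalings between the libraries moved the median of the tested genes to between −0.26 and 0.07 in CDK2i and between −0.06 and 0.43 in EZH2i. Since a scaling shifts every gene by the same amount, the distance of the members from that median, −0.22 and 0.47, is the same under each by construction. That distance did depend on the expression filter. Over genes with a mean above log2 FPKM 3 the CDK2i medians were −0.13 for 16 members and −0.025 for all 6229 genes. In EZH2i they were 0.58 and 0.08. Of the 48 genes, 41 were themselves among the tested genes. BRCA1, BARD1, BRIP1, BRCA2, RAD51D, FANCF and FANCM were too low for that filter but are counted with the rest here. Over the 41 alone, 29 (70.7%) were lower in CDK2i, with a median of −0.29. In EZH2i 40 of the 41 (97.6%) were higher, with a median of 0.61.

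The fold and expression thresholds of the study, a fold change above 2 and a log2 FPKM above 3 in the higher tumor, were applied without its p-value cutoff, which cannot be computed from 1 library per group. In CDK2i, RAD54L and MSH6 were lower past both, 2 of the 48 genes and of the 18 above the expression minimum (11.1%), against 8.07% of all genes above it. No member was higher past both, against 3.24%. In EZH2i, NBN, EXO1, TOPBP1, FANCD2, FANCI, BLM and PRKDC were higher past both, 7 of the 48 genes and of the 29 above the minimum (24.1%), against 8.9%, and none was lower, against 4.43%. Of these 29 genes, 11 were above the minimum only in the EZH2i tumor, so the filter itself favored higher values there. None of these 7 passed when each library was centred on the median of its tested genes, nor when the trend of the difference with GC content and transcript length was removed, and in CDK2i only MSH6 of the 2 passed under either. With the expression minimum dropped, 9 of the 48 genes were more than 2-fold lower in CDK2i (18.8%), against 10.9% of the tested genes, and 15 more than 2-fold higher in EZH2i (31.2%), against 10.2%. Among the 41 tested members these counts were 7 (17.1%) and 10 (24.4%).

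**Figure D2:**
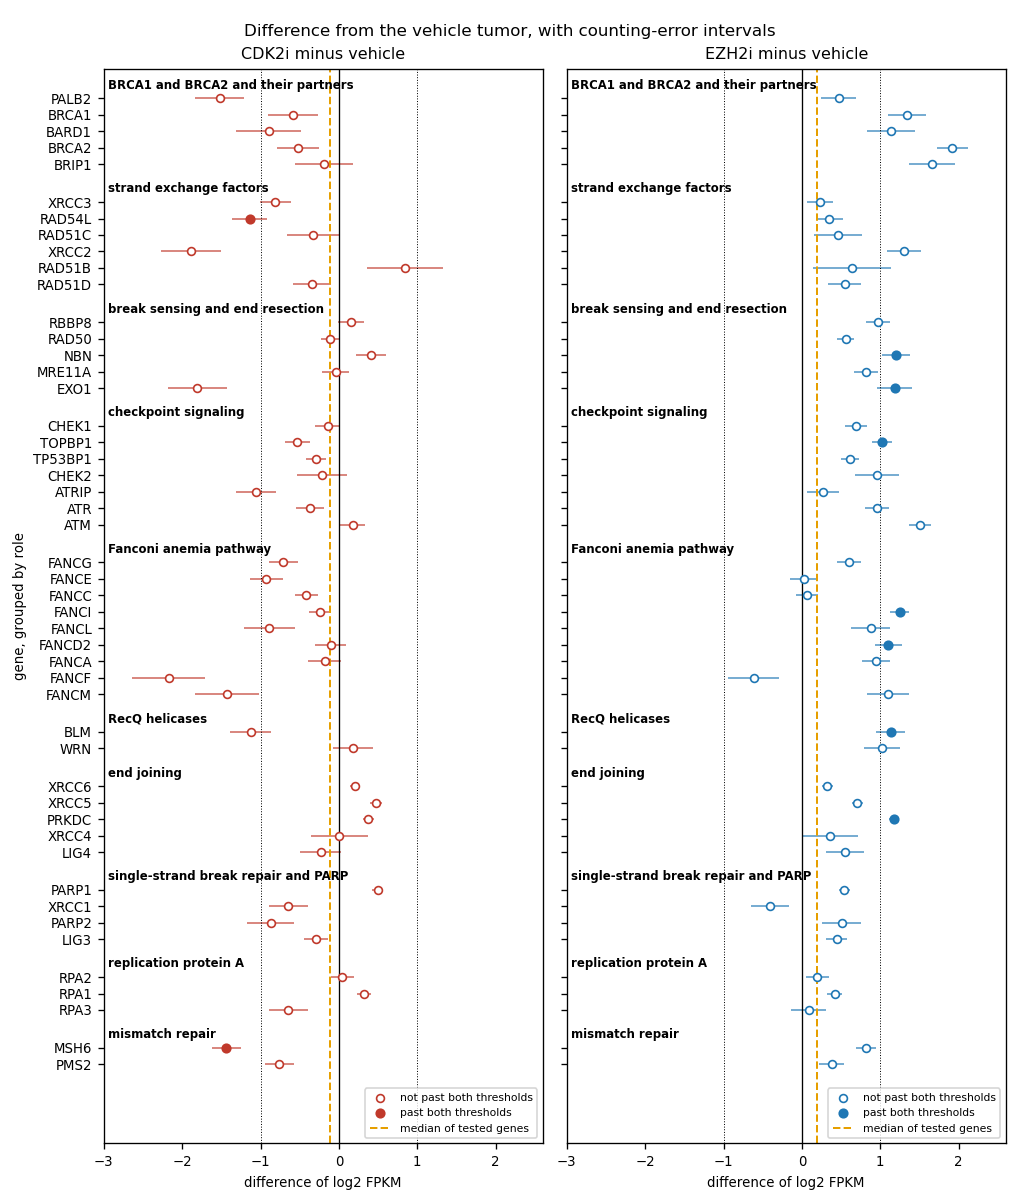
Difference of log2 FPKM from the vehicle tumor for each gene (rows, grouped by role) in CDK2i and EZH2i, with lines for the 95% counting interval, filled points for genes past the fold and expression thresholds, dotted lines at 2-fold and a dashed line at the median of the tested genes. In CDK2i 36 points lie left of 0, from −2.17 for FANCF, and in EZH2i 46 lie right of 0, up to 1.92 for BRCA2.

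BRCA1, BRCA2 and their partners included 3 of the 5 genes with the largest differences in EZH2i, namely BRCA2, BRIP1 and BRCA1. All 5 were higher in EZH2i (PALB2 turned lower with the GC content and transcript length trend removed), with a median difference of 1.34 on the log2 scale, and all 5 were lower in CDK2i, with a median of −0.59. BRCA1 (chr17:41196312-41322262 of GRCh37), the ubiquitin ligase subunit that steers break repair toward recombination, stood at log2 FPKM 0.65 in vehicle, 0.06 with CDK2i and 1.99 with EZH2i. The EZH2i tumor was the high one, by 1.34 (95% counting interval 1.10 to 1.58), and the CDK2i tumor the low one, at −0.59 (−0.90 to −0.27). BRCA2 (chr13:32889223-32974405), the mediator of strand exchange, had the largest difference of all 48 genes in EZH2i. It read 0.36 in vehicle, −0.16 with CDK2i and 2.28 with EZH2i, a 3.79-fold higher FPKM in EZH2i than in vehicle, with a log2 difference of 1.92 (1.72 to 2.12). Only 0.675% of the tested genes had a larger one, but BRCA2 itself was too low to be among them. With the GC content and transcript length trend removed its difference was 0.96. BRIP1 (chr17:59756500-59940920) followed at −0.24, −0.43 and 1.42, a difference of 1.66 (1.36 to 1.96) in EZH2i and of −0.19 in CDK2i, where the interval spanned 0. PALB2 (chr16:23614481-23652642), which bridges BRCA1 and BRCA2, showed the opposite balance. It was the most abundant of the group in vehicle at 2.07, stood at 0.55 in CDK2i, a difference of −1.52 (−1.84 to −1.21), and at 2.54 in EZH2i, a difference of 0.47. None of the 5 reached the expression minimum in any tumor, so none could pass both thresholds.

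Of the strand exchange factors RAD51B, RAD51C, RAD51D, XRCC2, XRCC3 and RAD54L, 5 of 6 were lower in CDK2i and all 6 higher in EZH2i (XRCC3 turned lower when each library was centred, and RAD51D with the trend removed), with medians of −0.58 and 0.50. XRCC2 (chr7:152341861-152373278) was at log2 FPKM 1.54 in vehicle, −0.35 with CDK2i and 2.85 with EZH2i. Its difference was −1.89 (−2.27 to −1.51) in CDK2i, from about 233 fragments in vehicle to 72, and 1.31 (1.09 to 1.53) in EZH2i. RAD54L (chr1:46712133-46744152), a DNA translocase that helps strand invasion, was at 3.19, 2.05 and 3.54 and passed both thresholds in CDK2i with a difference of −1.14 (−1.36 to −0.92). RAD51B (chr14:68286496-69196935) stood apart from its family. It was the only one of the 48 with its highest level in CDK2i, at 0.98 in vehicle, 1.82 with CDK2i and 1.62 with EZH2i. Its CDK2i difference of 0.84 was the highest of the list, but rested on about 52 fragments in vehicle and 106 in CDK2i, with an interval of 0.36 to 1.32. XRCC3 was the most abundant of this group at 3.62, 2.81 and 3.85. RAD51D was the least abundant at 0.77, 0.43 and 1.32, and RAD51C lay between them. For RAD51D the trend was taken at a canonical transcript of 9966 nt, which may not be the length behind its FPKM.

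The genes that sense and resect broken ends did not differ from vehicle by a like amount in CDK2i. MRE11A, RAD50 and NBN form the complex that binds ends, and their differences in CDK2i lay between −0.11 and 0.41. EXO1 (chr1:242011269-242058450), the exonuclease of long-range resection, was instead at log2 FPKM 1.96 in vehicle, 0.16 with CDK2i and 3.14 with EZH2i. The CDK2i tumor was thus 3.50-fold below vehicle, a difference of −1.81 (−2.19 to −1.43), and the EZH2i tumor passed both thresholds at 1.18 (0.96 to 1.41). NBN, the subunit that recruits ATM, was at 2.24, 2.65 and 3.45 and likewise passed both thresholds in EZH2i, at 1.2 (1.03 to 1.38). RBBP8 (CtIP), which starts resection together with that complex, was the most abundant of the 5 at 3.19, 3.35 and 4.16. All 5 were higher in EZH2i, by 0.56 to 1.2, but RAD50 and MRE11A turned lower with the trend removed.

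Among the 7 checkpoint genes, all were higher in EZH2i, by 0.27 to 1.51, and 6 were lower in CDK2i, but TP53BP1 turned lower in EZH2i with the trend removed, CHEK1 turned higher in CDK2i under that correction, with the libraries centred and with their summed FPKM made equal, and CHEK2 turned higher in CDK2i with the trend removed. ATM (chr11:108093771-108239829), the kinase that responds to double-strand breaks, was the weakest in vehicle at log2 FPKM 1.34, with 1.52 in CDK2i and 2.85 in EZH2i. Its EZH2i difference of 1.51 (1.37 to 1.65) was the largest of the group. TOPBP1 (chr3:133317019-133381224), the activator of ATR, passed both thresholds in EZH2i, at 2.84, 2.31 and 3.86 with a difference of 1.02 (0.89 to 1.15). CHEK1, the effector kinase of ATR, was the most abundant at 3.12 in vehicle, 2.98 with CDK2i and 3.81 with EZH2i. Its CDK2i difference of −0.14 had an interval that spanned 0. In this group the largest CDK2i difference was that of ATRIP, the partner of ATR, at −1.06 (−1.31 to −0.81).

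All 9 Fanconi anemia genes were lower in CDK2i, with a median of −0.71, except that FANCA turned higher when each library was centred, and FANCD2 then, with the summed FPKM made equal and with the trend removed. In EZH2i 8 were higher, with a median of 0.88 over the 9, and FANCE turned lower when each library was centred, and FANCC then and with the trend removed. FANCF (chr11:22644079-22647369), an adaptor of the core complex with a single exon, had the lowest difference of all 48 genes in both tumors. It stood at log2 FPKM 1.74 in vehicle, −0.43 with CDK2i and 1.13 with EZH2i. The CDK2i tumor was 4.51-fold below vehicle, with a log2 difference of −2.17 (−2.64 to −1.71) and about 185 fragments against 47. In EZH2i the difference was −0.61 (−0.94 to −0.29). FANCM, the translocase that anchors the core complex to DNA, was the weakest of the group in vehicle, at 0.40, with −1.02 in CDK2i and 1.51 in EZH2i. FANCI (chr15:89787176-89860492) and FANCD2 (chr3:10068054-10143616), the pair that is ubiquitinated at crosslinks, both passed the thresholds in EZH2i. FANCI was at 3.38, 3.14 and 4.62, a difference of 1.25 (1.13 to 1.36), and FANCD2 at 2.14, 2.04 and 3.25, a difference of 1.10 (0.93 to 1.28). Their CDK2i differences were small, −0.24 and −0.11. Part of FANCD2 is repeated in pseudogenes, as are parts of PMS2 and CHEK2, so reads of these genes may have been shared with copies. FANCG, the most abundant of the group, was at 3.65, 2.95 and 4.26. In EZH2i, FANCE and FANCC lay close to vehicle. FANCE was at 3.50, 2.57 and 3.52, and FANCC at 3.42, 3.0 and 3.49, with EZH2i differences of 0.02 and 0.07 whose intervals spanned 0.

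The RecQ helicases differed from each other in CDK2i. BLM (chr15:91260577-91359396), which dissolves recombination intermediates, was at log2 FPKM 1.92 in vehicle, 0.79 with CDK2i and 3.05 with EZH2i, with differences of −1.13 (−1.39 to −0.86) and 1.13 (0.95 to 1.32). The latter passed both thresholds. WRN was at 0.80, 0.97 and 1.82, and its CDK2i difference of 0.18 had an interval that spanned 0.

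End joining was the role with the most genes above vehicle in CDK2i, 4 of 5, with a median difference of 0.21. All 5 were higher in EZH2i, but XRCC4 and LIG4 turned lower with the trend removed. PRKDC, which encodes DNA-PKcs, was at log2 FPKM 3.61 in vehicle, 3.98 with CDK2i and 4.79 with EZH2i. It was higher in both treated tumors, by 0.37 (0.30 to 0.44) and by 1.18 (1.12 to 1.25), and the latter passed both thresholds. The Ku subunits, which encircle broken ends, were the most abundant of this role in every tumor. XRCC5 was at 5.41, 5.88 and 6.12, with differences of 0.47 and 0.71, and XRCC6 at 6.51, 6.72 and 6.84, with differences of 0.21 and 0.32. XRCC4 and LIG4, which seal the ends together, were weaker. XRCC4 was at 2.05, 2.06 and 2.41, so that the CDK2i and vehicle tumors could hardly be separated and the sign of their difference turned with the scaling, and LIG4 at 1.80, 1.56 and 2.35.

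Among the genes of single-strand break repair, PARP1, the enzyme that marks nicks with poly(ADP-ribose), was higher in both treated tumors. PARP1 (chr1:226547911-226595855) was at log2 FPKM 5.50 in vehicle, 5.99 with CDK2i and 6.04 with EZH2i, with differences of 0.49 (0.43 to 0.56) and 0.54 (0.48 to 0.61). Its relative PARP2 was at 2.88, 2.0 and 3.38, lower in CDK2i by 0.87. XRCC1 (chr19:44047463-44084625), the scaffold of nick repair, was lower in both, at 3.15, 2.5 and 2.74, with differences of −0.64 (−0.89 to −0.40) and −0.40 (−0.65 to −0.16). Its partner ligase LIG3 was the weakest in vehicle, at 2.38, 2.09 and 2.82, and turned lower in EZH2i with the trend removed. XRCC1 and FANCF were the only members lower in EZH2i than in vehicle with the deposited scaling, and 7 members were lower with each library centred.

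The 3 subunits of replication protein A, which coats single-stranded DNA, had the smallest median difference of the 10 roles in EZH2i, 0.20, with a range of 0.09 to 0.42, and RPA2 and RPA3 turned lower there when each library was centred. With the trend removed RPA1 and RPA3 were lower than vehicle and the median was −0.08. RPA2 was at log2 FPKM 4.65 in vehicle, 4.69 with CDK2i and 4.84 with EZH2i. RPA3, the smallest subunit, was at 3.17, 2.52 and 3.26, and its CDK2i difference of −0.65 lay apart from those of RPA1 and RPA2, at 0.32 and 0.04. In mismatch repair, MSH6 (chr2:47922669-48037202), which recognises mismatches, was at 3.45 in vehicle, 2.02 with CDK2i and 4.27 with EZH2i. It passed both thresholds in CDK2i, 2.71-fold below vehicle with a log2 difference of −1.44 (−1.62 to −1.25). PMS2, the endonuclease of the pathway, was at 2.68, 1.92 and 3.06, lower in CDK2i by 0.76, and in EZH2i lower than vehicle once the trend was removed.

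Promoter sequences were examined for the site of E2F, the family of factors that drives genes of S phase, when recombination is most used. The search took TTTCCCGC, TTTCGCGC, TTTGCCGC and TTTGGCGC on both strands, in windows from 250 bases before to 50 after the RefSeq start (GRCh38.p14), and no coordinate was carried between builds. Promoters were matched for 41 of the 48 genes. The site was found in 9 of them (22%), against 3.99% of the 27305 genes with a promoter and 6.85% of the 7680 tested genes outside the list. Windows are shown for the 5 members that held a site and differed by more than 2-fold from vehicle in either treated tumor, 5′ to 3′ on the strand of the gene, with the site in capitals. No more than 30 bases past the start are printed.
XRCC2: gttggtgaatggcgttggtgGCGGGAAAg
EXO1: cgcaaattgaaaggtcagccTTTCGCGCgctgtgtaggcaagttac
MSH6: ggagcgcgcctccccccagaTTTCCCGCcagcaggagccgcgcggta
TOPBP1: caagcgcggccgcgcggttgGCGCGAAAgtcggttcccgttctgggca
FANCD2: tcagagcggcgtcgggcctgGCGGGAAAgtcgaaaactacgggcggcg
The windows lie at chr7:152676112-152676140 for XRCC2, chr1:241848188-241848233 for EXO1, chr2:47783128-47783174 for MSH6, chr3:133661921-133661968 for TOPBP1 and chr3:10026415-10026462 for FANCD2, with XRCC2 and TOPBP1 on the minus strand. The first base of the site was at +22, +5, +4, −7 and −2 from the start, and the words in XRCC2, TOPBP1 and FANCD2 were those of the other strand. FANCA, FANCC, XRCC6 and PMS2 held the site as well. The 9 genes had median differences of −0.53 in CDK2i and 0.94 in EZH2i, the other 32 matched genes −0.36 and 0.58. Over the tested genes outside the list the medians were −0.16 with and −0.09 without the site in CDK2i, and 0.26 and 0.21 in EZH2i. XRCC6, with the site, was higher in CDK2i, and PALB2 and FANCF, among the lowest in CDK2i, did not hold these words in the window. The CCAAT box, CCAAT, was present in 22 of the 41 (53.7%), against 39.7% of all genes with a promoter and 42.9% of the tested genes outside the list. The CHR element of cell cycle genes, TTTGAA or TTCGAA, was present in 5 (12.2%), against 19.5% and 14.4%, so its share was near that of the tested genes.

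The members were long genes. Their median span on the genome was 71.8 kb, against 30.6 kb for the 9911 tested protein-coding genes, their median canonical transcript 4584 nt against 3156 nt, their median exon number 16 against 9, and their median GC content 43.5% against 49.7%. In CDK2i the genes with the shorter spans were the lower ones. Across the 48 genes, which are not independent replicates, the Spearman correlation of the difference with gene span was 0.44, against 0.13 over the tested protein-coding genes. The 12 genes with the shortest spans, 3.29 to 32.0 kb, had a median difference of −0.84, and 11 of them were lower than in vehicle. The medians of the next sets of 12 by span were −0.43, −0.21 and −0.09, the last for the genes of 108 to 910 kb, of which 6 were lower. Tested genes of the same spans had medians of −0.15, −0.07, −0.03 and 0.07. From the shortest set to the longest, 11, 9, 10 and 6 of the 12 members were lower than in vehicle. Of the tested genes of those spans 61.2%, 55.5%, 53.2% and 44.4% were lower, so the count of the longest set was near its share. With the length of the longest transcript in place of the span the correlation was 0.12, and with the summed exon length 0.15, so it was weaker without the introns. The annotated span of some genes runs well past the canonical transcript, for MSH6 115 kb against 23.8 kb, and with the span of the canonical transcript the correlation was 0.47. Without RAD51B and FANCF, the longest and the shortest of the list, it was 0.36, and over the 16 members with a mean log2 FPKM above 3 it was 0.26.

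The values of the longest and shortest genes, which enter the correlation, were not all in its order. Of the 5 with the longest span, RAD51B at 910 kb had the highest difference in CDK2i. FANCC at 328 kb was lower by 0.42, XRCC4 at 276 kb was level with vehicle, and RBBP8 at 228 kb and PRKDC at 187 kb were higher by 0.15 and 0.37. Of the 5 with the shortest span, FANCF at 3.29 kb, FANCG at 6.17 kb, PARP2 at 14.3 kb and FANCE at 14.8 kb were lower by 2.17, 0.71, 0.87 and 0.93, and LIG4 at 10.9 kb by 0.23. The genes best known for their dependence on CDK12 were named for that reason and not by size, with their values already known. Their CDK2i differences were −0.59 for BRCA1 (126 kb), −0.37 for ATR (130 kb), −0.24 for FANCI (73.3 kb) and −0.11 for FANCD2 (75.6 kb), each above the median of −0.84 of the 12 genes with the shortest spans. Against members of similar span, BRCA1 and ATR lay below the median of −0.09 of the 12 longest genes, FANCI just below that of −0.21 of its own set, and FANCD2 above it. Whether inhibition of CDK12 had a part in any of these differences was not tested.

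**Figure D3:**
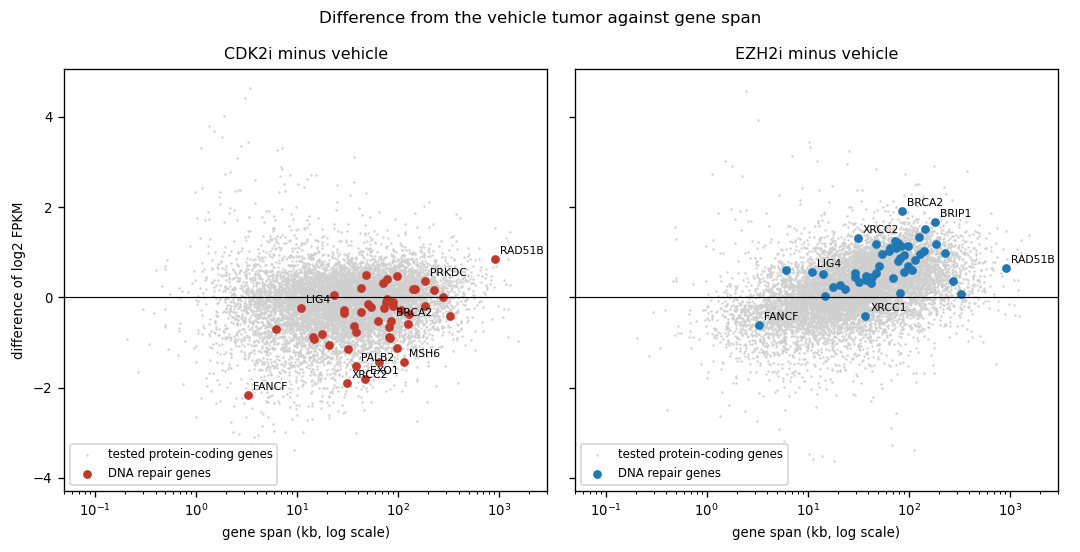
Difference of log2 FPKM from the vehicle tumor (vertical axis) against gene span in kb (horizontal axis, log scale) in CDK2i and EZH2i, with the 48 DNA repair genes in color over the 9911 tested protein-coding genes in grey. In CDK2i the members run from FANCF (3.29 kb, −2.17) to RAD51B (910 kb, 0.84), and in EZH2i the grey genes as well as the members lie higher at long spans.

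In EZH2i the difference also ran with gene length, but so did that of other genes. The correlation with gene span was 0.49 over the 48 genes and 0.47 over the tested protein-coding genes. With the canonical transcript length it was 0.54 and 0.51, and with GC content −0.64 and −0.59. For CDK2i the values with GC content were −0.11 and 0.04. Long span, long transcript and low GC content go together in these genes, with a correlation of −0.42 between span and GC content over the 48. After the trend with GC content and transcript length was removed, the EZH2i median of the 48 genes was 0.22 in place of 0.67, and 34 of 48 (70.8%) were higher, against 51.2% of the tested genes. The fit held a constant, so the step also moved the EZH2i median of the tested genes, from 0.19 to 0.01. The 5 genes of the BRCA1 and BRCA2 group kept the largest median by role, 0.57, with BRCA2 at 0.96, BRIP1 at 0.78, BRCA1 at 0.57, BARD1 at 0.35 and PALB2 at −0.11. In all, 12 members turned lower in EZH2i under this correction, none of them past the thresholds before it. FANCF was at −1.09 and was the only member beyond 2-fold. In CDK2i the same correction left a median of −0.24, with 32 of 48 lower (66.7%), against 45.9% of the tested genes, and a correlation with gene span of 0.40. There the median of the tested genes moved from −0.11 to 0.05. What produced the trend with GC content and length in the EZH2i library was not tested.

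**Figure D4:**
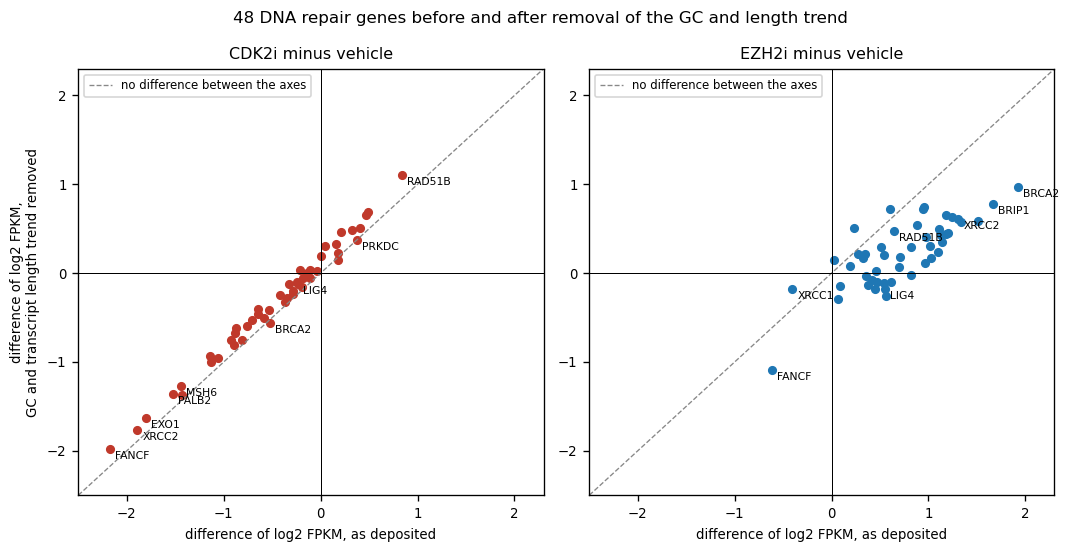
Difference of log2 FPKM from the vehicle tumor as deposited (horizontal axis) and after removal of the GC content and transcript length trend (vertical axis) for the 48 DNA repair genes in CDK2i and EZH2i, with a dashed line where both are equal. Most CDK2i points lie somewhat above the line, with the median going from −0.34 to −0.24. Most EZH2i points lie below it, with the median going from 0.67 to 0.22.

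Genes of DNA repair outside the list were counted in the same way. Of 108 such genes 91 were tested, and 71 of these were lower in CDK2i, with a median of −0.41, and 67 higher in EZH2i, with a median of 0.39. Over all tested genes 58% were lower in CDK2i and 61.5% higher in EZH2i, with medians of −0.11 and 0.19. Past both thresholds, 4 of the other repair genes were lower and none higher in CDK2i, and 7 were higher and 1 lower in EZH2i. Of the 50 and 68 above the expression minimum, the 4 lower and the 7 higher were 8.0% and 10.3%, near the shares of 8.07% and 8.9% over all genes above it. Removal of the trend gave medians of −0.23 and 0.11. Of 30 proliferation genes 29 were tested, and 26 of these were lower in CDK2i, with a median of −0.26, and 26 higher in EZH2i, with a median of 0.74. Removal of the trend left −0.07 and 0.63, with 13 of the 29 higher in CDK2i and 26 higher in EZH2i. The summed level of the epithelial markers was 2.35-fold higher in CDK2i than in vehicle, carried by KRT5, KRT14 and KRT17, while the other 6 markers were 1.11-fold to 1.42-fold higher and the median difference of the 9 was 0.46. The part of a different share of cycling cells, of the epithelial marker level, or of the depth of the libraries in the members' differences was not tested.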

How the data were processed

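RNAseq of total RNA from 3 SUM-149 xenograft tumors was analysed, 1 library each for vehicle, CDK2i and EZH2i. The authors deposited log2 FPKM values per gene symbol, made against hg19 (GRCh37). The submitters' processing notes name CASAVA and STAR, with no version. The counting tool, the gene lengths and the handling of mouse reads are not given in the sources used here. A deposited log2 value of −9 was taken as an FPKM of 0. No per-sample column went unused. Depth was read from genes whose low FPKM equals 1 fragment.

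The gene list, its 10 roles, the further lists and the settings were chosen with earlier results of these data known. Differences of log2 FPKM were computed with Python 3.11.15, pandas 2.3.3 and scipy 1.17.1, with no pseudocount. Values in every library were given for members past the thresholds, BRCA1 and BRCA2, the 5 longest and 5 shortest spans, the 5 highest and 5 lowest differences per comparison and the extremes of each role in vehicle. Spans, transcript lengths and GC content were computed with the GENCODE 44 annotation lifted to GRCh37, which held all 48 genes (MRE11A under a newer symbol). The GC content and transcript length trend was a constant with a polynomial of degree 3 in each. It was fitted over 10198 tested genes without ribosomal protein genes, and the step was tested on simulated data. The alternatives were other fold and expression thresholds, 3 scalings, pseudocounts of 1 and 0.1 FPKM, other filters and other lengths. The span of the canonical transcript and the omission of RAD51B and FANCF were added after seeing the data. With 1 library per group, no replicate could be left out. Some other repair genes are not reported here.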

Additional observations from a re-analysis of the deposited data

How the results depend on the processing

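No paired analysis was possible because each group had 1 library. The number of members past the thresholds, 2 in CDK2i and 7 in EZH2i, depended on most settings. It was 7 and 16 with a fold threshold of 1.5, 0 and 0 with a fold threshold of 3, 9 and 15 with no expression minimum, 8 and 15 with a minimum of log2 FPKM 1, and 0 and 0 with a minimum of log2 FPKM 5. Across scalings it was 1 and 0 when the libraries were centred on their tested genes, 1 and 16 when scaled to the same total FPKM, and 3 and 8 when that total left out mitochondrially encoded and ribosomal protein genes. It was 1 and 4 with a pseudocount of 1 FPKM, and 1 and 0 with the GC content and transcript length trend removed. Except for the setting with no expression minimum, the share of all genes past the same setting is not given here. These counts therefore describe the settings and not the members. The tested genes moved as well, to an EZH2i median of −0.06 with the libraries centred and 0.43 with equal total FPKM.

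The median difference kept its sign under every setting tried, from −0.48 to −0.13 in CDK2i and from 0.22 to 0.91 in EZH2i. In EZH2i it was 0.42 centred, 0.91 with equal sums and 0.22 with the trend removed. The correlation with gene span in CDK2i was 0.12 with the longest transcript, 0.15 with the summed exon length and 0.26 over members with a mean above log2 FPKM 3. In EZH2i it was 0.20 with the trend removed. No difference of a member past the thresholds reversed. The causes of these shifts were not tested. Depth limits the weakest members most: RAD51B rested on about 52 fragments in vehicle and FANCF on 47 in CDK2i.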
